A study of Mus musculus with 6 samples.

Results

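The Fc receptors for immunoglobulin G (IgG) were read in the RNA of cells isolated as liver sinusoidal endothelial cells (LSECs) from mice bearing bevacizumab-sensitive or bevacizumab-resistant HCT116 colorectal cancer liver metastasis (CRCLM) xenografts. The members were chosen by symbol and are Fcgr1, Fcgr2b, Fcgr3, Fcgr4, Fcer1g, Fcgrt and Trim21, 7 of the 60832 genes in the deposited table. They are of interest here because the drug is itself an antibody. The choice by symbol uses no measured value, although earlier results of these data were known when it was made.

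HCT116 is a human colorectal cancer cell line, and the tumors were grown from cells placed in the left liver lobe of male BALB/c-Nu mice, a host that lacks mature T cells. The 3 libraries of the resistant group came from xenografts that had acquired resistance under repeated bevacizumab, a humanized IgG against human VEGF-A. By the study's methods the vehicle group received IgG, so an antibody was given in both arms, and a group that received none was not analysed here. The labels call the other 3 libraries bevacizumab-sensitive and do not restate that treatment. LSECs were picked with anti-CD146 beads and, per the labels, cultured for 24 h, and the age of the mice at isolation is not given in the labels. The paper's methods report high purity of CD146-positive cells by flow cytometry. Nothing in the labels says whether replicates came from separate mice. The p-values therefore set the group difference against the spread between these libraries, which may be technical.

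IgG that has coated a target is read by cells through its Fc end. In the mouse, Fcgr1 encodes the high-affinity receptor FcγRI, Fcgr3 and Fcgr4 encode the activating receptors FcγRIII and FcγRIV, and all of these signal through the ITAM of a common γ chain encoded by Fcer1g. Fcgr2b encodes FcγRIIB, which carries an inhibitory ITIM and is known as an abundant receptor of LSECs, where it clears small immune complexes from blood. Fcgrt encodes the heavy chain of FcRn, which pairs with β2-microglobulin and returns endocytosed IgG and albumin to the circulation, and Trim21 encodes a ubiquitin ligase that binds the Fc end of antibodies that have reached the cytosol.

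In GRCm38 with the GENCODE M21 annotation, 4 of the 7 genes lie close together on chromosome 1. These are Fcgr2b (chr1:170958617-170976547, minus strand), Fcgr4 (chr1:171018920-171029761, plus strand), Fcgr3 (chr1:171051174-171064935, minus strand) and Fcer1g (chr1:171229572-171234365, minus strand). Fcgr1 lies apart on chromosome 3 (chr3:96282909-96293969, minus strand). Fcgrt (chr7:45092990-45103851) and Trim21 (chr7:102557921-102565486) lie on the minus strand of chromosome 7. The exons of Fcgr2b share 155 bases with Gm38204, a gene on the opposite strand. Fcgr3 and Fcgr2b are near-identical in places, and 9.58% of the 50-base stretches in Fcgr3 transcripts also occur in Fcgr2b transcripts, against 2.92% of those of Fcgr2b in Fcgr3. For 100-base stretches these shares were 2.54% and 0.753%. How the counting treated reads from such stretches was not examined.

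The promoters of the activating receptor genes and of Trim21 are shown because they differ from the others in the letters searched for. Each window runs from 250 bases before to 50 bases after the RefSeq start site in GRCm38.p6 and is written 5′ to 3′ on the strand of the gene. They are Fcgr1 (chr3:96293920-96294219), Fcgr3 (chr1:171059354-171059653, inside the longer GENCODE gene), Fcgr4 (chr1:171018676-171018975) and Trim21 (chr7:102565433-102565732). Capitals mark matches, on either strand, to GAGGAA (the core bound by the myeloid factor PU.1, which reads TTCCTC on the other strand), to TTCNNNGAA (the GAS element), to the interferon-stimulated response element (GAAA, any 2 bases, GAAA) or to GGGCGG (the GC box). TATAAA was searched as well and had no match in any member.
Fcgr1: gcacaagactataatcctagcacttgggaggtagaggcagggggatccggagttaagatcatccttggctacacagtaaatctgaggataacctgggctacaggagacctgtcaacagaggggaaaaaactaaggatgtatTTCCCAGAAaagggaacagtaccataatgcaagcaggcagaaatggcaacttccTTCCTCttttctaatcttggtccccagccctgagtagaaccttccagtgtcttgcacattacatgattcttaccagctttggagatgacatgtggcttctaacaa
Fcgr3: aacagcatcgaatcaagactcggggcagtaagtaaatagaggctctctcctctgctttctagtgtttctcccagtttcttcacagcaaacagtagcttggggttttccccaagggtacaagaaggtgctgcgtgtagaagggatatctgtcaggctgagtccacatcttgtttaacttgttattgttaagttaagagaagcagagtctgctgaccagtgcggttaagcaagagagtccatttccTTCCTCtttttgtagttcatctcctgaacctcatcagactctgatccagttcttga
Fcgr4: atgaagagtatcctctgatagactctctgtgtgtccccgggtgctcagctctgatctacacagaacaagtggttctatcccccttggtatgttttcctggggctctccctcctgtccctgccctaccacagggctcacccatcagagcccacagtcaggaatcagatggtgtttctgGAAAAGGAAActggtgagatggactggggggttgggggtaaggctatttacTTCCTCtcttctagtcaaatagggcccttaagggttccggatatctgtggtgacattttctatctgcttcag
Trim21: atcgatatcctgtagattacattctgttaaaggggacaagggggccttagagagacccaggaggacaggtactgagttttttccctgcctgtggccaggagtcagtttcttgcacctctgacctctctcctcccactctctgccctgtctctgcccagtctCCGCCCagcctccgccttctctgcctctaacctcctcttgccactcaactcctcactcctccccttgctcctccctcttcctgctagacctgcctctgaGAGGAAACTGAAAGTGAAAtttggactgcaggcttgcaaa

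The windows shown were picked because they held matches, so the PU.1 core in each of them is not a result about the members. Counted from 0 at the start site, the PU.1 core lay at -55 to -50 in Fcgr1, at -6 to -1 in Fcgr3, at -22 to -17 in Fcgr4 and at 10 to 15 in Trim21. It occurs in 28.1% of the 32544 RefSeq mouse promoters of this length, so single matches are common. Fcgr1 alone among the members held the GAS element, at -109 to -101, which 8.33% of promoters hold. The interferon-stimulated response element, in 3.45% of promoters, stood at -73 to -64 in Fcgr4 and in overlapping copies at 13 to 22 and 19 to 28 in Trim21, where the first copy also overlaps the PU.1 core. The GC box, in 35.9% of promoters, was found in Trim21, and TATAAA occurs in 13.6%. The windows of Fcgr2b, Fcer1g and Fcgrt held none of these letters. RefSeq gives Fcgr3 a further start site nearby, and there the same PU.1 core falls at -15 to -10.

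Total counts lay between 17599326 and 20726684 per library, so that 3 counts equal 0.145 to 0.170 CPM, which is the count divided by the library total and scaled alike in all libraries. Such a floor takes in counting error alone. Sensitive replicate 2 stood apart, with a Pearson r across the tested genes of 0.860 to 0.901 with the other 5 libraries, against 0.954 to 0.974 for the other 10 pairs, so values without it are given below. Markers of other cell types were abundant. The summed CPM of 18 macrophage and Kupffer cell markers was 25288 to 38448, led by Marco, Cd5l and Lyz2, while 16 LSEC markers summed to 451 to 1375 and 16 pan-endothelial markers to 88 to 540. Fcna, which macrophages also express, held much of the LSEC sum, and without it the LSEC sum was 155 to 598. Mcam, the gene for the CD146 used in the isolation, had 0.303 to 3.84 CPM. By these markers the libraries hold far more macrophage than endothelial transcripts, and LSEC is used here for the isolation. This RNA reading differs from the high CD146 purity that the paper reports by flow cytometry, and the reason was not tested. In bulk RNA, fewer cells of a type and less RNA per cell cannot be told apart.

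**Figure D1:**
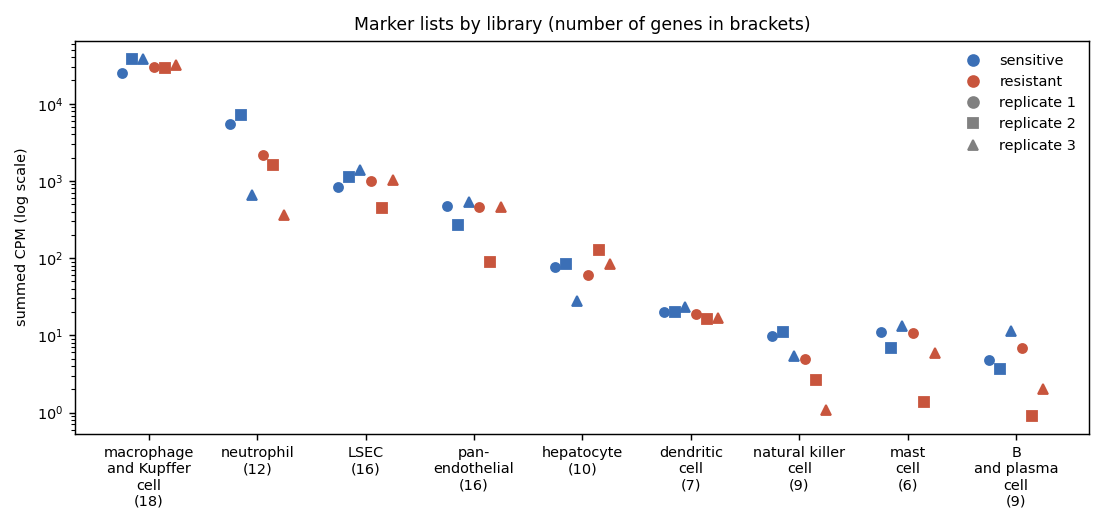
Summed CPM (log scale) of 9 lists of marker genes in the 6 libraries, with colour for the group, symbol for the replicate and the number of genes in brackets. Macrophage and Kupffer cell markers lie at 25288 CPM or more in every library, LSEC markers between 451 and 1375, and the neutrophil sum spans 365 to 7072.

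Neutrophil markers summed to 654 to 7072 CPM in the sensitive and 365 to 2147 in the resistant group, with S100a9, S100a8 and Mmp8 highest. All 12 had a negative fold change, and 2 had an unadjusted p under 0.05. Negative fold changes were also found for 10 of 18 macrophage, 12 of 16 LSEC and 15 of 16 pan-endothelial markers, with 2, 1 and 5 at an unadjusted p under 0.05. Over all 15474 tested genes 7619 were negative and 3.08% had an unadjusted p under 0.05. The groups did not overlap for 6 of the 16 pan-endothelial markers, where 8.39% of all tested genes did not overlap. The remaining lists were low. Natural killer cell markers summed to 5.45 to 11.0 CPM in the sensitive and 1.09 to 4.97 in the resistant group, and dendritic cell markers to 20.0 to 23.2 and 16.4 to 18.7, without overlap in either list. Klrk1 alone had 4.2 to 7.5 CPM of the natural killer sum in the sensitive and 0.88 to 3.9 CPM in the resistant group. B and plasma cell markers summed to 0.910 to 11.5 CPM over all libraries, mast cell markers to 1.37 to 13.0 and hepatocyte markers to 27.7 to 127. The defining genes Klrb1c, Cd209a, Mcpt1 and Mcpt4 were at 0 counts in all 6 libraries.

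All 7 members passed edgeR's filter on low counts. None of the 7 had an adjusted p under 0.05 between the resistant and the sensitive group in edgeR's quasi-likelihood test, where percent called among all 15474 genes tested was likewise 0 at an adjusted p under 0.05 (smallest adjusted p 0.940). At an unadjusted p under 0.05 there were again 0 of 7 members, beside 476 genes or 3.08% of all tested, 83 higher and 393 lower. DESeq2 called 24 genes after adjustment and 732 before it, limma-voom called 0 and 384, and neither gave a member an adjusted p under 0.05.

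**Figure D2:**
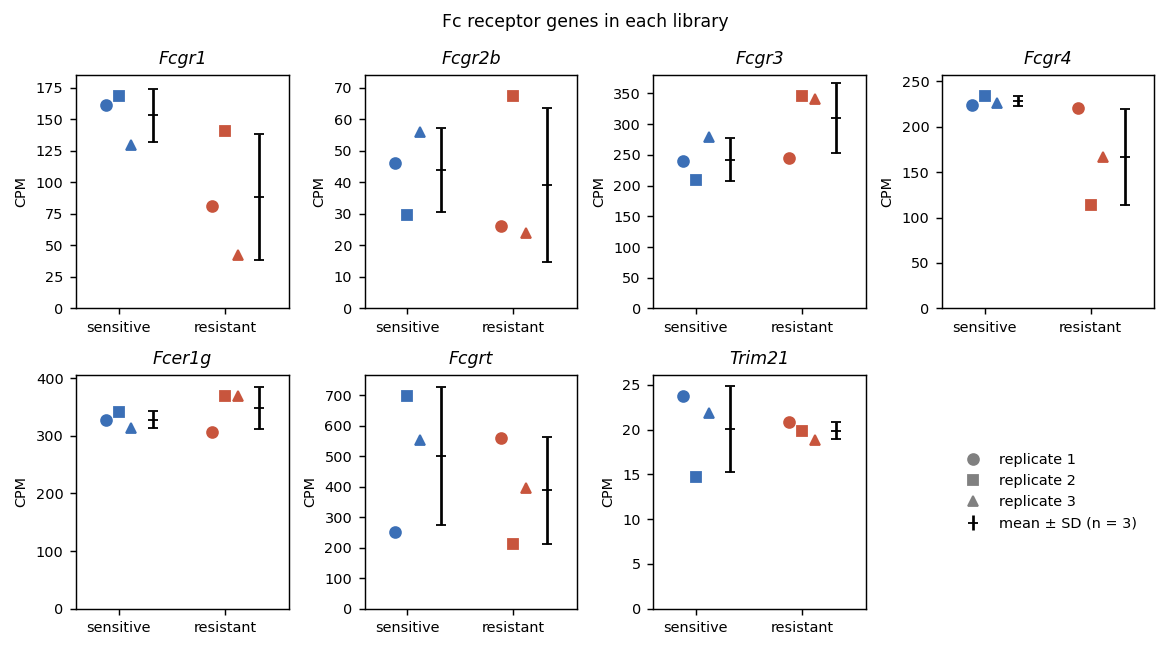
CPM of the 7 Fc receptor genes in each library (points, shape by replicate) with the mean ± SD of 3 libraries per group beside them, each axis starting at 0. Fcgr4 is the only panel in which the groups do not overlap, at 224 to 234 against 114 to 220 CPM.

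Fcgr1, the high-affinity receptor, had 161, 169 and 129 CPM in sensitive replicates 1, 2 and 3. In resistant replicates 1, 2 and 3 it had 81.5, 141 and 42.7 CPM. Resistant replicate 2 lay within the range of the sensitive group and resistant replicates 1 and 3 below it, so the groups overlapped. The means were 153 ± 20.9 and 88.4 ± 49.6 CPM (SD, n = 3; exact two-sided permutation p = 0.2, where 0.1 is the smallest this design allows). edgeR's log2 fold change was -0.86 (SE 0.434, 95% interval -1.88 to 0.17, adjusted p = 0.940). It was -0.70 without sensitive replicate 2, -1.40 without resistant replicate 2 and -0.51 without resistant replicate 3. The interferon-inducible genes were low in the library where Fcgr1 was lowest. Their 10 genes summed to 462 CPM in resistant replicate 3, against 786 to 1244 CPM in the sensitive group and 848 and 864 CPM in the other resistant libraries. Irf7 and Irf8, the latter named after its values were seen, had more counts than any other gene of this list in each library. Other libraries did not follow the same order. Resistant replicate 1 had 848 CPM for this sum and 81.5 CPM of Fcgr1, and sensitive replicate 3 had 786 and 129 CPM. Whether the interferon-inducible genes bear on Fcgr1 was not tested.

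Fcgr3, an activating receptor of low affinity, had 240, 208 and 279 CPM in the sensitive libraries. In the resistant libraries it had 244, 346 and 340 CPM. Resistant replicates 2 and 3 lay above all others, and resistant replicate 1 lay among the sensitive libraries. The means were 242 ± 35.2 and 310 ± 57.3 CPM (SD, n = 3; exact permutation p = 0.2), and the log2 fold change was 0.30 (SE 0.235, 95% interval -0.25 to 0.85, adjusted p = 0.940 with edgeR). It was 0.48 without resistant replicate 1, 0.20 without resistant replicate 2 and 0.26 without sensitive replicate 2. Lyz2, a lysozyme gene of macrophages and neutrophils, was also highest in resistant replicates 2 and 3, at 6488 and 6460 CPM, with 5196 CPM in sensitive replicate 3 and 1405 to 2203 CPM in the rest. Other macrophage markers went the other way and were lowest in these libraries, Clec4f at 1750 and 2042 CPM and Timd4 at 12.4 and 20.1 CPM. The whole macrophage list summed there to 28629 and 31971 CPM, within the sensitive range of 25288 to 38448 CPM. The part of macrophage or neutrophil RNA in the Fcgr3 values was not tested.

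Fcgr4, the receptor FcγRIV of macrophages, monocytes and neutrophils, had 224, 234 and 226 CPM in the sensitive libraries. The resistant libraries had 220, 114 and 166 CPM. The sensitive libraries were close to each other and all above the resistant ones, although resistant replicate 1 missed the lowest of them only narrowly. The means were 228 ± 5.14 and 167 ± 52.9 CPM (SD, n = 3; exact permutation p = 0.1, the smallest the design allows), and the log2 fold change was -0.54 (SE 0.258, 95% interval -1.14 to 0.073, adjusted p = 0.940 with edgeR). It was -0.33 without resistant replicate 2, the library with the lowest value, and -0.44 without sensitive replicate 2. Fcgr4 was the only one of the 7 members whose groups did not overlap, where 8.39% of all tested genes did not overlap, 5.01% with the resistant group higher and 3.38% with it lower. As a share of the macrophage marker sum, Fcgr4 was at 0.886%, 0.622% and 0.588% in the sensitive and 0.731%, 0.399% and 0.520% in the resistant libraries, and on that scale the groups overlapped (exact permutation p = 0.4). The neutrophil sum was 654 CPM in sensitive replicate 3, where Fcgr4 had 226 CPM, and 7072 CPM in sensitive replicate 2, where it had 234 CPM. The natural killer cell sums were 5.45 to 11.0 CPM in the sensitive and 1.09 to 4.97 CPM in the resistant group, without overlap. These are low values in which Klrk1 was the largest part, and 2 of the 9 listed genes passed the filter on low counts. The dendritic cell sums were 20.0 to 23.2 and 16.4 to 18.7 CPM, also without overlap. Of the 3 dendritic cell genes tested, 0 had groups that did not overlap. The part of RNA of natural killer cells, dendritic cells or neutrophils in the group difference was not tested.

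Fcer1g, the common γ chain, was the least variable member. It had 328, 342 and 314 CPM in the sensitive libraries and 306, 368 and 369 CPM in the resistant ones. The groups overlapped, with resistant replicate 1 lowest and resistant replicates 2 and 3 highest. The means were 328 ± 14.2 and 348 ± 36.1 CPM (SD, n = 3; exact permutation p = 0.4), and the log2 fold change was 0.015 (SE 0.214, 95% interval -0.49 to 0.52, adjusted p = 0.990 with edgeR). Without sensitive replicate 2 the fold change was 0.12. Its coefficient of variation over the 6 libraries was 7.93%, below the lower quartile of 16.6% among the 9639 tested genes with an average log2 CPM of at least 3, whose median was 24.7%. Fcgr3 varied by 20.4%, Fcgr4 by 24.0%, Trim21 by 15.5%, Fcgr1 by 40.7%, Fcgr2b by 42.9% and Fcgrt by 43.1%. Fcgr1, Fcgr2b and Fcgrt lay above the upper quartile of 34.5%.

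Fcgr2b, the inhibitory receptor, had 46.1, 29.7 and 55.9 CPM in the sensitive libraries. In the resistant libraries it had 26.3, 67.5 and 23.9 CPM. The resistant group held both the highest and the lowest values of the 6, so its range enclosed that of the sensitive group. The means were 43.9 ± 13.3 and 39.2 ± 24.5 CPM (SD, n = 3; exact permutation p = 0.8), and the log2 fold change was -0.19 (SE 0.456, 95% interval -1.27 to 0.88, adjusted p = 0.948 with edgeR). Single libraries set its sign. It was -0.88 without resistant replicate 2, 0.075 without resistant replicate 3, 0.056 without resistant replicate 1, 0.021 without sensitive replicate 3 and -0.37 without sensitive replicate 2. Resistant replicate 2, where Fcgr2b was highest, had the lowest endothelial sums of all libraries, at 451 CPM for the LSEC list and 88 CPM for the pan-endothelial list. Stab2, a scavenger receptor of LSECs, had 29.1 CPM there and 41.5 to 142 CPM elsewhere. The part of endothelial RNA in the Fcgr2b values was not tested.

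Fcgrt, the FcRn heavy chain, had 252, 696 and 552 CPM in the sensitive libraries. The resistant libraries had 561, 211 and 394 CPM. Both groups spanned low and high values and overlapped broadly. The means were 500 ± 227 and 389 ± 175 CPM (SD, n = 3; exact permutation p = 0.6), and the log2 fold change was -0.49 (SE 0.498, 95% interval -1.67 to 0.68, adjusted p = 0.940 with edgeR). Without sensitive replicate 2 it was -0.081, without resistant replicate 2 it was -0.20, and without sensitive replicate 1 and resistant replicate 1 in turn it was -0.84 and -0.80. Hepatocytes also express Fcgrt, and the hepatocyte marker sum was highest, at 127 CPM, in resistant replicate 2, where Fcgrt was lowest. The part of hepatocyte RNA in the Fcgrt values was not tested.

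Trim21, the cytosolic antibody receptor, was the member with the fewest reads. It had 23.7, 14.7 and 21.8 CPM in the sensitive libraries and 20.8, 19.9 and 18.9 CPM in the resistant ones. The resistant values lay inside the sensitive range, whose lowest value came from sensitive replicate 2. The means were 20.1 ± 4.78 and 19.9 ± 0.957 CPM (SD, n = 3; exact permutation p = 1), and the log2 fold change was -0.065 (SE 0.220, 95% interval -0.58 to 0.45, adjusted p = 0.963 with edgeR). Without sensitive replicate 2 it was -0.19, and without sensitive replicate 1 it was 0.011.

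**Figure D3:**
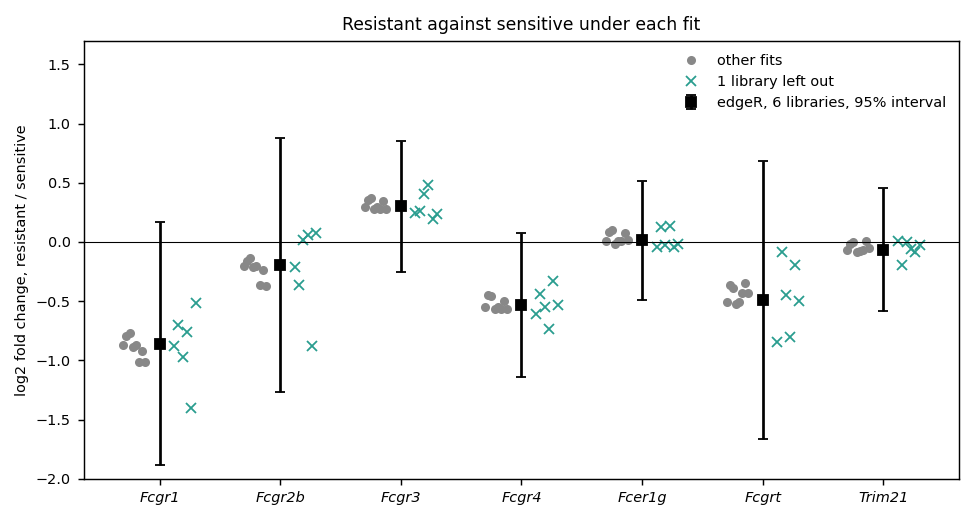
Log2 fold change of each member, resistant over sensitive: edgeR on all 6 libraries with its 95% interval (squares), other normalizations, filters, tests and the replicate block (grey circles), and each library left out in turn (crosses). Every interval includes 0, and the values of Fcgr2b, Fcer1g and Trim21 fall on both sides of 0.

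Levels between genes were compared per length, in FPKM as deposited. Fcer1g was the highest member in 6 of 6 libraries, at 350 to 422 FPKM. Below it came Fcgr4 at 90.9 to 186, Fcgr3 at 120 to 199 and Fcgrt at 100.1 to 331 FPKM, whose ranges overlapped and whose order changed between libraries. Fcgr1 was below these in every library, at 16.5 to 65.2 FPKM. Fcgr2b at 4.13 to 11.7 and Trim21 at 3.95 to 6.39 FPKM were lowest and overlapped. The Fcgr2b level depends on the gene length used. Its exon union, by which the deposited values were divided, is 5790 bases, while the median of its basic coding transcripts is 1520 bases. By that shorter length Fcgr2b would be at 15.7 to 44.4 FPKM.

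In deposited FPKM, divided by exon-union length, the α chains of the activating receptors summed to a narrow range within each group. Fcgr1, Fcgr3 and Fcgr4 together had 379, 371 and 390 FPKM in the sensitive libraries and 347, 345 and 345 FPKM in the resistant ones. Their ratio to Fcer1g, their partner, was 1.01, 0.949 and 1.09 in the sensitive and 0.992, 0.818 and 0.818 in the resistant libraries. Within that sum the make-up differed between libraries. Fcgr3 held 36.5%, 32.3% and 41.1% in the sensitive and 40.5%, 57.8% and 56.9% in the resistant libraries. Fcgr4 held 47.1%, 50.1% and 46.1% against 50.4%, 26.4% and 38.4%. Resistant replicates 2 and 3 were thus the libraries in which Fcgr3 exceeded Fcgr4, with an Fcgr4 to Fcgr3 ratio of 0.456 and 0.675, while it was 1.12 to 1.55 in the other 4. Fcgr1 held 12.8% to 17.6% in the sensitive group and 9.06%, 15.8% and 4.78% in the resistant group. The exon union of Fcgr3 is 1736 bases and the median of its basic coding transcripts is 1335 bases, so the sums and shares depend on the length used. These sums and shares are descriptions, chosen after values were seen, and were not tested.

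**Figure D4:**
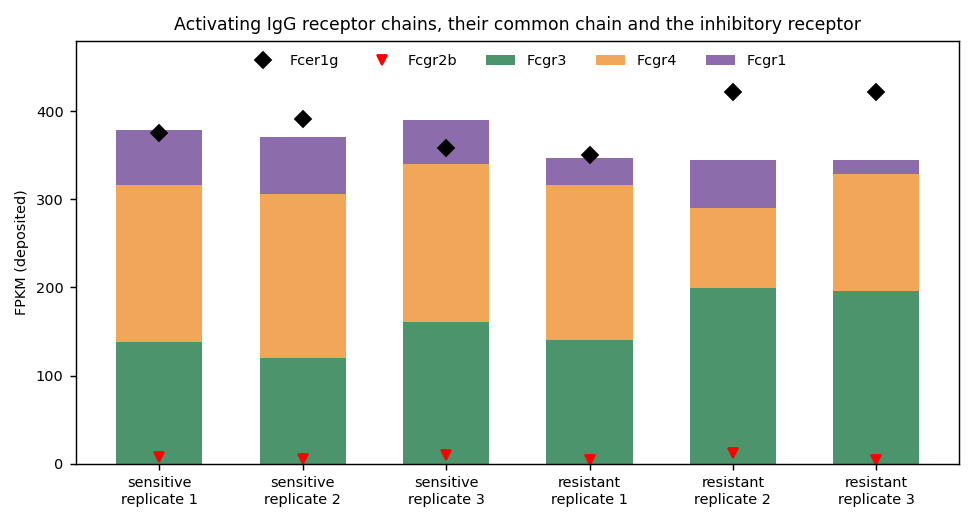
Deposited FPKM of the activating α chains Fcgr3, Fcgr4 and Fcgr1 (stacked bars) with Fcer1g (diamonds) and Fcgr2b (triangles) in each library. The stacks reach 371 to 390 in the sensitive and 345 to 347 in the resistant libraries, and Fcgr3 is the tallest segment only in resistant replicates 2 and 3. Stack heights and the order of Fcgr3 and Fcgr4 depend on the gene length used.

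The balance of activating to inhibitory receptors is the usual reading of this family. The activating α chains exceeded Fcgr2b by 47.6, 72.5 and 40.4 times in the sensitive and by 76.6, 29.6 and 83.5 times in the resistant libraries, so the resistant group again enclosed the sensitive one. With the median coding transcript length, an alternative added after the data were seen, the ratios were 11.9 to 20.9 in the sensitive and 9.11 to 25.7 in the resistant libraries. By either length the activating receptors were the more abundant at the RNA level in 6 of 6 libraries.

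Relative to the macrophage marker sum, the groups overlapped for every one of the 7 members. The log2 difference, resistant minus sensitive, was -0.81 for Fcgr1 (exact permutation p = 0.3), 0.48 for Fcgr3 (exact p = 0.2), -0.37 for Fcgr4 (exact p = 0.4) and 0.22 for Fcer1g (exact p = 0.5). It was -0.15 for Fcgr2b (exact p = 0.9), -0.22 for Fcgrt (exact p = 0.7) and 0.15 for Trim21 (exact p = 0.7). With 3 libraries against 3 none of these 7 tests could give a p below 0.1.

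The pathways that the receptors feed were read from fixed lists, in each of which 0 genes had an adjusted p under 0.05 with edgeR. Unadjusted counts are given beside the 3.08% of all genes. Of 30 genes of activating signalling, 11 had positive and 19 negative fold changes, with a median of -0.056 against 0.0079 for all genes tested, and 1 had an unadjusted p under 0.05. This was Fgr, a Src-family kinase of myeloid cells, with 123, 95.7 and 134 CPM in the sensitive and 82.9, 51.1 and 49.1 CPM in the resistant libraries. The groups did not overlap for Fgr, with a log2 fold change of -1.01 (SE 0.243, edgeR adjusted p = 0.940). Of the 30 genes, 2 had groups that did not overlap, where 8.39% of all tested genes did not overlap. Card9, an adaptor downstream of Syk, had 82.6 ± 44.2 and 57.8 ± 13.3 CPM, and Blnk, an adaptor that Syk phosphorylates, had 22.6 ± 4.33 and 33.5 ± 11.9 CPM (SD, n = 3), both with overlapping groups.

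Of 8 inhibitory signalling genes, 3 had positive and 5 negative fold changes, the median was -0.061 and 0 had an unadjusted p under 0.05. Inppl1, the phosphatase SHIP2, had a log2 fold change of 0.45, the adaptor gene Dok1 of -0.40, Ptpn6, the phosphatase SHP-1, of -0.32 and Pag1, an adaptor that recruits Csk, of -0.22. The groups overlapped for each of them.

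Receptors that use the γ chain, read with other adaptors, spanned log2 fold changes from -2.49 to 0.96. Of 10 genes 7 were tested, 3 with positive and 4 with negative fold changes, and 3 had an unadjusted p under 0.05. The groups did not overlap for 2 of these 7, where 8.39% of all tested genes did not overlap. Clec4n, the receptor Dectin-2 for fungal mannans, had 80.7, 65.2 and 98.2 CPM in the sensitive and 140, 158 and 196 CPM in the resistant libraries, all of these above all of the sensitive ones. Its log2 fold change was 0.96 (SE 0.229, edgeR adjusted p = 0.940). Clec4e, the receptor Mincle, had 55.2, 48.5 and 25.7 CPM in the sensitive and 25.0, 9.26 and 5.25 CPM in the resistant libraries, with a log2 fold change of -1.80 (SE 0.582, edgeR adjusted p = 0.940) and a narrow gap between the groups. The third gene with an unadjusted p under 0.05 was Tarm1, named after its values were seen. It had 1.51 to 18.8 CPM in the sensitive and 1.30 to 2.85 CPM in the resistant group. Clec4e and Tarm1 were highest in sensitive replicates 1 and 2, the libraries with the highest neutrophil sums, at 5455 and 7072 CPM, and the part of neutrophil RNA in their values was not tested. Clec4d, which pairs with Mincle, had 234 ± 73.0 and 383 ± 211 CPM, and Hcst, the adaptor DAP10, had 17.7 ± 7.07 and 11.2 ± 6.31 (SD, n = 3), with overlapping groups.

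For FcRn, 3 of 6 partner and recycling genes had positive and 3 negative fold changes, with 0 at an unadjusted p under 0.05. B2m, the light chain of FcRn and of MHC class I, had 2157 ± 383 and 1679 ± 387 CPM, Exoc2, a subunit of the exocyst, had 37.8 ± 24.8 and 70.0 ± 6.43, Rab11a, a GTPase of recycling endosomes, had 99.0 ± 5.16 and 97.1 ± 5.44, and Rab11fip1, its effector, had 11.6 ± 4.66 and 13.0 ± 2.99 (SD, n = 3). Of 10 partners of TRIM21, 7 had positive and 3 negative fold changes, the median was 0.12 and 0 had an unadjusted p under 0.05. Vcp, the segregase that acts with the proteasome on TRIM21-bound antibody, had 318 ± 104 CPM in the sensitive and 462 ± 37.0 CPM in the resistant group (SD, n = 3). Its groups did not overlap, where 8.39% of all tested genes did not overlap. The gap was narrow, with 8244 of 19635488 counts in sensitive replicate 1 and 8388 of 19771609 in resistant replicate 2. Mavs had a log2 fold change of 0.40, Ufd1 of -0.29 and Nploc4, which with Ufd1 is a cofactor of Vcp, of 0.26.

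Of 12 other Fc receptor genes 4 were tested, 1 with a positive and 3 with negative fold changes, and 1 had an unadjusted p under 0.05. This was Fcrl1, a gene best known from B cells and named after its values were seen, at 4.83 to 8.61 CPM in the sensitive and 2.98 to 5.02 CPM in the resistant group. The 4 IgG heavy chain genes in the table summed to 0.146 CPM or less in the sensitive group and in resistant replicates 2 and 3, at or below the limit of 3 counts, and to 4.20 CPM in resistant replicate 1. None of them was tested.

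Interferons induce Fcgr1 and Trim21 in myeloid cells, so 10 interferon-inducible genes were read as a reference. Of the 9 tested, 9 had negative fold changes, with a median of -0.83, and 3 had an unadjusted p under 0.05 while their groups overlapped. Isg15, a ubiquitin-like modifier, had 47.2, 104 and 12.6 CPM in the sensitive and 17.6, 19.8 and 7.44 CPM in the resistant libraries. Its mean rested on sensitive replicates 1 and 2, as did that of Ifit1, an RNA-binding effector, with 28.1, 47.6 and 7.64 CPM against 8.64, 10.5 and 3.59. Irf7, a transcription factor that induces type I interferon, had 476 ± 195 and 306 ± 157 CPM (SD, n = 3). Sensitive replicates 1 and 2 were also those rich in neutrophil transcripts, whose part in these values was not tested.

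**Figure D5:**
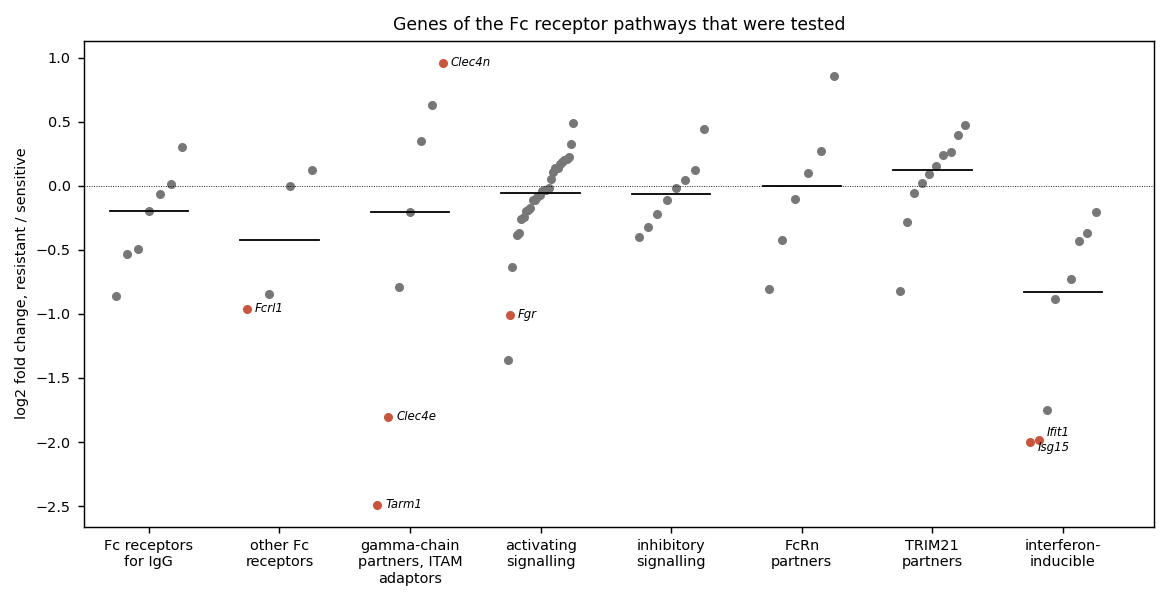
Log2 fold change, resistant over sensitive, of the tested genes of each list (points), with the median of the list (line) and an unadjusted p under 0.05 in red with the gene name. The medians are of all tested genes of a list, of which 2 are not drawn. The 7 Fc receptors for IgG have none in red, and the interferon-inducible genes drawn all lie below 0.

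The genes whose log2 CPM ran most like that of each member over the 6 libraries were sought among 9632 genes, as a description, since libraries share depth and cell make-up and so many genes always give some high values. For Fcgr1 they were Pspc1 (Pearson r 0.984), Slfn5 (0.982) and Fanca (0.974). For Fcgr3 they were Gusb (0.992), Rps27l (0.991) and Nucb1 (0.991), and for Fcgr4 Rgs2 (0.985), Arrdc4 (0.980) and Mrps6 (0.976). Fcer1g ran closest to Nit1 (0.995), Chordc1 (0.991) and Daam1 (0.986), and Fcgr2b to Ndufab1-ps (0.968), Havcr2 (0.957) and Rab11fip5 (0.950). Those nearest to Fcgrt were Dnajb5 (0.983), Mdc1 (0.963) and Grap (0.963), and those nearest to Trim21 were Gda (0.990), AW554918 (0.987) and Rnf213 (0.976). Between members, Fcgr3 and Fcgr4 ran opposite (-0.803), Fcgr4 ran with Fcgrt (0.761) and Fcgr1 with Fcgr2b (0.669). With 6 libraries and no test these values are descriptions.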

How the data were processed

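RNA-seq libraries of 6 LSEC samples were grouped from their titles, 3 per group. The authors aligned reads with HISAT2 2.0.5 and counted them per gene with featureCounts 1.5.0-p3, as named in the submitters' processing notes and the paper, and deposited unnormalized counts. The labels describe ribosomal RNA depletion, and the paper's methods name poly(A) selection as well. FPKM values, which the authors deposited beside the counts, are scaled by library total and gene length. The notes list mm9, but lengths implied by FPKM equal GENCODE M21 (GRCm38) exon unions, within 1 base, for 97.5% of 4359 genes with at least 1000 counts, all members among them. A deposited table with the authors' own comparison (group means, fold changes and p-values) was not used.

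Counts were tested in R 4.3.3 with edgeR 4.0.16: filterByExpr, TMM, robust quasi-likelihood test, two-sided, with Benjamini-Hochberg adjustment over 15474 genes and a threshold of 0.05. Means of CPM were compared by an exact permutation test (scipy 1.17.1). Log2 CPM used a prior count of 2. Total counts set the precision: they were 17599326 to 20726684 per library, without molecular identifiers, so floors cover counting error only. No pair of libraries of a group held the same counts within sampling noise (chi-square per gene 36.7 or more). Alternatives were other normalizations, filters, DESeq2 1.42.0, limma 3.58.1 on voom weights or on log2(FPKM + 1), a replicate block and each library left out.

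The members and lists were chosen with earlier results of these data known. Beside the members, genes are named by rule: per pathway list up to 4 of the largest absolute log2 fold change with an average log2 CPM of at least 3, per marker list up to 3 of the highest mean CPM, and per member the 3 most alike. Others are marked where named. Values of 2 genes that the rule names are not reported here. Promoter sequences are from RefSeq, GRCm38.p6, in which 7 of 7 members had an entry. Strand-specific counting is not given in the sources used here, so reads of Fcgr2b and Gm38204 cannot be told apart.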

Additional observations from a re-analysis of the deposited data

How the results depend on the processing

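Members' fold changes kept their direction and their side of the threshold in 87 of 98 recomputations, and in the other 11 the sign turned around values near 0. With 1 library left out, Fcgr2b ran from -0.88 to 0.075 on the log2 scale, Fcer1g from -0.043 to 0.13 and Trim21 from -0.19 to 0.011. Fcer1g was also -0.014 with at least 10 counts required in every library, and Trim21 0.0075 on log2(FPKM + 1). The smallest adjusted p of any member over all alternatives was 0.619, for Fcgr1.

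Genes passing an adjusted p of 0.05, 0 with edgeR, numbered 2 when low counts were not filtered and 24 with DESeq2. Before adjustment, 476 became 2036 without the filter and 732 with DESeq2, and 167 to 1056 with 1 library left out (167 without resistant replicate 3, 245 without resistant replicate 2 and 1056 without sensitive replicate 3). The cause was not tested. Fcer1g was the highest member in 6 libraries by FPKM and in 2 by CPM, where it is not divided by its short length.

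Relative to C1q genes in place of the macrophage list, the log2 difference was 0.093 for Fcgr2b and 0.025 for Fcgrt. Relative to the macrophage list with 1 library left out, it ran from -0.66 to 0.16 for Fcgr2b, from -0.54 to 0.13 for Fcgrt and from -0.15 to 0.48 for Trim21.

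The fit with the replicate number as a block (replicate block) gave 0 genes after adjustment and 467 before, and changed no call of a member. Deviations of same-numbered libraries correlated at -0.00093, 0.034 and 0.19, and 3 of 6 libraries correlated best with their own number. With only 3 libraries per group, these values cannot settle whether the numbers pair the samples.

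With 3 libraries per group, the 95% intervals of the log2 fold change differ in width between members, from -1.88 to 0.17 for Fcgr1 and -1.67 to 0.68 for Fcgrt to -0.49 to 0.52 for Fcer1g and -0.58 to 0.45 for Trim21, and differences within them were not detectable here.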
